A study of Homo sapiens with 6 samples.

Results

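The inhibitor of DNA binding genes ID1, ID2, ID3 and ID4 and the BMP feedback genes SMAD6, SMAD7 and BAMBI were followed across 6 arrays of A549, a long-established cell line from a human lung adenocarcinoma. They were chosen by gene symbol, and all 7 were measured, among 11963 genes that had a probe set with 1 symbol. They had 13 probe sets in all, and each gene is given by its brightest probe set on average, with the others beside it. The higher ID1 level in the PIAS3 arrays was known when the 7 genes were listed, so their differences between PIAS3 and control are given as a description.

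Of the 3 groups of 2 arrays, the first was A549 transfected with the pCMV5 plasmid for human PIAS3, which attaches SUMO to other proteins and is known to inhibit STAT3. In the second, A549 received an siRNA directed at STAT3, a transcription factor downstream of cytokine receptors. The third was A549 labelled as stimulated with EGF, and its labels name no transfection. The design text describes serum-free medium followed by EGF for every group, although only the control titles name EGF. Harvest was 48 h after transfection. The records of all 6 arrays also give 10% serum, a seeding time of 12 h and the same 48 h. The controls thus carry a time after transfection, although their labels name none. No array of cells given an empty plasmid or a non-targeting siRNA was analysed here, so transfection itself cannot be told apart from either agent. Separate cultures for the arrays of a group are not stated, so p-values here reflect array-to-array spread, possibly technical.

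BMP ligands bind paired serine/threonine kinase receptors, which phosphorylate SMAD1, SMAD5 and SMAD9, and these enter the nucleus with SMAD4. The ID genes are classic direct targets of that complex. ID proteins have a helix-loop-helix region but no DNA-binding region, and they hold E proteins such as TCF3, TCF4 and TCF12 in dimers that cannot bind DNA. SMAD6 and SMAD7, the inhibitory SMADs, and BAMBI, a receptor-like membrane protein without a kinase domain, damp the signal and are themselves induced by BMP or TGF-beta. In lung adenocarcinoma cells ID1 is known to respond to BMP.

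The 6 arrays were not equally alike, and this touches every value below. PIAS3 replicate 1 stood apart: 18 measured interferon-stimulated genes had a median of 4.12 on the log2 scale above the control mean there, against 0.03 in PIAS3 replicate 2 and -0.03 and 0.07 in the STAT3 siRNA arrays. Their summed linear level was 28678 in PIAS3 replicate 1 and 1635 in replicate 2, between 1484 and 1811 in the siRNA arrays and between 1519 and 1542 in the controls, and no member was at the level of the absent-transcript probe sets on all 6 arrays. The poly-A spike-in probe sets had a median of 1.41 above the control mean in the same array. STAT3 siRNA replicate 2 differed less from PIAS3 replicate 2, with an SD of the log2 difference of 0.19 over all probe sets, than from siRNA replicate 1 (0.25), while siRNA replicate 1 lay nearest to control replicate 2 (0.20). STAT3 read 10.18 and 9.70 under PIAS3 and 10.23 and 9.94 under the siRNA, against 10.50 and 10.43 in the controls, and neither difference passed the test (limma adjusted p of 0.254 and 0.9998). The PIAS3 probe set read 7.78 and 7.72 under PIAS3, against 7.70 and 7.71 in the controls. The sources used here do not say whether its probes fall inside the plasmid's insert, so this level does not check the plasmid. Of 17 measured lung epithelial (A549) markers, the keratins KRT8 and KRT18 read 12.39 to 13.79 on all 6 arrays. KRT19, by contrast, read 9.02 and 9.34 under PIAS3 and 10.76 and 9.42 under the siRNA, against 11.16 and 11.02 in the controls. EPCAM was likewise lower, at 6.36 and 6.78, then 7.12 and 6.04, against 7.24 and 7.22. CPS1 went the other way, at 9.74 and 9.38, then 6.80 and 9.05, against 6.61 and 6.40. The list's median difference from the control mean was 0.16 and 0.05 under PIAS3 and 0.08 and 0.02 under the siRNA. The 3 absent-transcript probe sets on the array spanned 3.26 to 3.93. Of the markers of other cell types, few stayed at or below 3.93 on all 6 arrays. These were 1 of 9 measured leukocyte genes (LYZ), 2 of 11 fibroblast genes (LUM and POSTN) and 0 of 7 endothelial genes. A reading above 3.93 does not by itself show a transcript, for markers or members, because 3 probe sets do not give the background of every other. The summed linear level of the fibroblast genes was 884 and 906 under PIAS3 and 1823 and 880 under the siRNA, against 1806 and 1937 in the controls, and that of the leukocyte genes 471 and 421 under PIAS3 and 407 and 362 under the siRNA, against 371 and 377 in the controls. The fibroblast sum thus separated the 2 PIAS3 arrays and siRNA replicate 2 from siRNA replicate 1 and the controls, but this split followed SPARC. That gene read 6.48 and 7.05 under PIAS3 and 9.90 and 7.05 under the siRNA, against 9.95 and 10.14 in the controls. The median difference of the fibroblast list from the control mean was 0.13 and -0.06 under PIAS3 and 0.07 and -0.06 under the siRNA. The part of the sum in the values below was not tested.

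The genes lie on 7 chromosomes (GRCh38.p14, RefSeq): ID1 at chr20:31605289-31606510, ID2 at chr2:8682056-8684461, ID3 at chr1:23557926-23559501 on the minus strand, ID4 at chr6:19837370-19842197, SMAD6 at chr15:66702236-66782849, SMAD7 at chr18:48919853-48950965 on the minus strand and BAMBI at chr10:28677521-28682932. All 7 matched a RefSeq promoter window of 300 bases, from 250 bases before to 50 after the annotated start. The windows of ID1 and ID2, the genes with the 2 largest differences from control, and of SMAD7 and BAMBI, which both lay below control in each transfected array, are shown on the gene's strand. Of 3 SMAD7 windows listed, the one at the gene's outer end is shown. Capitals mark GTCT or its reverse complement AGAC, the SMAD box, and GGCGCC, a GC-rich SMAD element.
ID1, chr20:31605039-31605338, plus strand: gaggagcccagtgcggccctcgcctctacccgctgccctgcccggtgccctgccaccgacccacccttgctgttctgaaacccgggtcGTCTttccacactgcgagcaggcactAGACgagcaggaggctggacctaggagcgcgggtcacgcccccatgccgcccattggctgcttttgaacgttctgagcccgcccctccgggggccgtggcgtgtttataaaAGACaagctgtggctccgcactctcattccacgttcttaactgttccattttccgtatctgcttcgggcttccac
ID2, chr2:8681806-8682105, plus strand: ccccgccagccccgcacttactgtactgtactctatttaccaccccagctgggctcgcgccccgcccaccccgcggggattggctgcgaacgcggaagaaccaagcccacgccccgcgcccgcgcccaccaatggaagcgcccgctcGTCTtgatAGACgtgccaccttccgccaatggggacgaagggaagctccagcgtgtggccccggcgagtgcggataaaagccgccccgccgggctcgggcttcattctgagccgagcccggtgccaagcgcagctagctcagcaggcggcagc
SMAD7, chr18:48950916-48951215, minus strand: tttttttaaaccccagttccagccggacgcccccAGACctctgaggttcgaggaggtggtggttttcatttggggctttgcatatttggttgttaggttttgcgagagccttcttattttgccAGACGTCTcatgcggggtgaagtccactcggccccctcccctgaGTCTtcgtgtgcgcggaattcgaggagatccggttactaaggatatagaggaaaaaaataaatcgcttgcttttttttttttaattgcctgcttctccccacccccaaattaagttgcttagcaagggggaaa
BAMBI, chr10:28677271-28677570, plus strand: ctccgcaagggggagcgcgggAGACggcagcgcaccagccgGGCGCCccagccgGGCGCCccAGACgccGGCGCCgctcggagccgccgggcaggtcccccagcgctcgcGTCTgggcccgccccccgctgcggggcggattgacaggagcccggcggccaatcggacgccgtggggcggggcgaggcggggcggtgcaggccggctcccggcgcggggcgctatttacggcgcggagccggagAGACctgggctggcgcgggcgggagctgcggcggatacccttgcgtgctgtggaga
On both strands, GTCT matched 3 times in the ID1 window, 2 times in ID2, 4 times in SMAD7 and 4 times in BAMBI. Such a short run is common, and 84% of 35116 promoter windows of this length held it, with a median of 2 matches. The 3 matches of GGCGCC in the BAMBI window begin 209, 196 and 181 bases before the start, a motif held by 19.2% of windows and by none of the other 6 genes' windows. The BAMBI window is 80% G or C, the highest of the 7, beside a median of 58.7% over all windows. The 19.2% is thus not a share among windows of like composition, which were not compared. The STAT element TTCNNNGAA, held by 7.66% of windows, matched 1 time in the ID3 window, 181 bases before its start, and in no other of the 7. GTCT and AGAC are 1 motif read on opposite strands, the other motifs shown are their own reverse complement, and a match is a description of the letters, not a binding site.

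ID1 had the largest mean difference from control of the 7 genes in the PIAS3 arrays. On the log2 scale its level was 12.20 and 11.32 under PIAS3 and 10.72 and 11.52 under the siRNA, against 10.10 and 10.04 in the controls. All 4 transfected arrays lay above both controls, by at least 0.62, while the 2 PIAS3 arrays differed from each other by 0.88 and the 2 siRNA arrays by 0.80. The difference was 1.69 ± 0.33 between PIAS3 and control (SE, n = 2 per group; 3.22-fold), and 1.05 ± 0.33 between the siRNA and control (2.07-fold, limma adjusted p = 0.909). Between PIAS3 and siRNA it was 0.64 ± 0.33, with a 95% interval from -0.14 to 1.41 and groups that overlapped (adjusted p = 0.638); leaving out 1 PIAS3 or siRNA array moved it to between 0.20 and 1.08. A larger difference of either sign from control was found for 0.527% of genes with PIAS3 and 0.242% with the siRNA. RNA of all cells was pooled on an array, so more cells with a transcript and more of it per cell cannot be told apart, nor can fewer and less where a level was lower. The highest ID1 reading was in PIAS3 replicate 1, the array with raised interferon-stimulated genes and spike-ins, whose part in it was not tested; without that array the difference from control was 1.24. Without siRNA replicate 2 the siRNA difference was 0.65, and without siRNA replicate 1 it was 1.45.

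ID2 gave a like picture in both transfected groups. Its level was 9.57 and 9.90 under PIAS3 and 9.33 and 10.40 under the siRNA, against 8.30 and 8.72 in the controls. Each transfected array lay above both controls, and siRNA replicate 2 was the highest of the 6. The difference from control was 1.23 ± 0.33 with PIAS3 (2.34-fold) and 1.36 ± 0.33 with the siRNA (2.57-fold, adjusted p = 0.678). With the siRNA, 3 of 11963 genes had a larger positive difference than ID2. PIAS3 minus siRNA was -0.13 ± 0.33, with an interval from -0.90 to 0.64 (adjusted p = 0.930), so these arrays leave room for differences of either sign. The siRNA difference was 0.82 without siRNA replicate 2 and 1.89 without siRNA replicate 1. The other ID2 probe set, whose suffix marks probes that other transcripts may share, differed from control by 1.26 ± 0.34 with PIAS3 and 1.10 ± 0.34 with the siRNA.

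**Figure D1:**
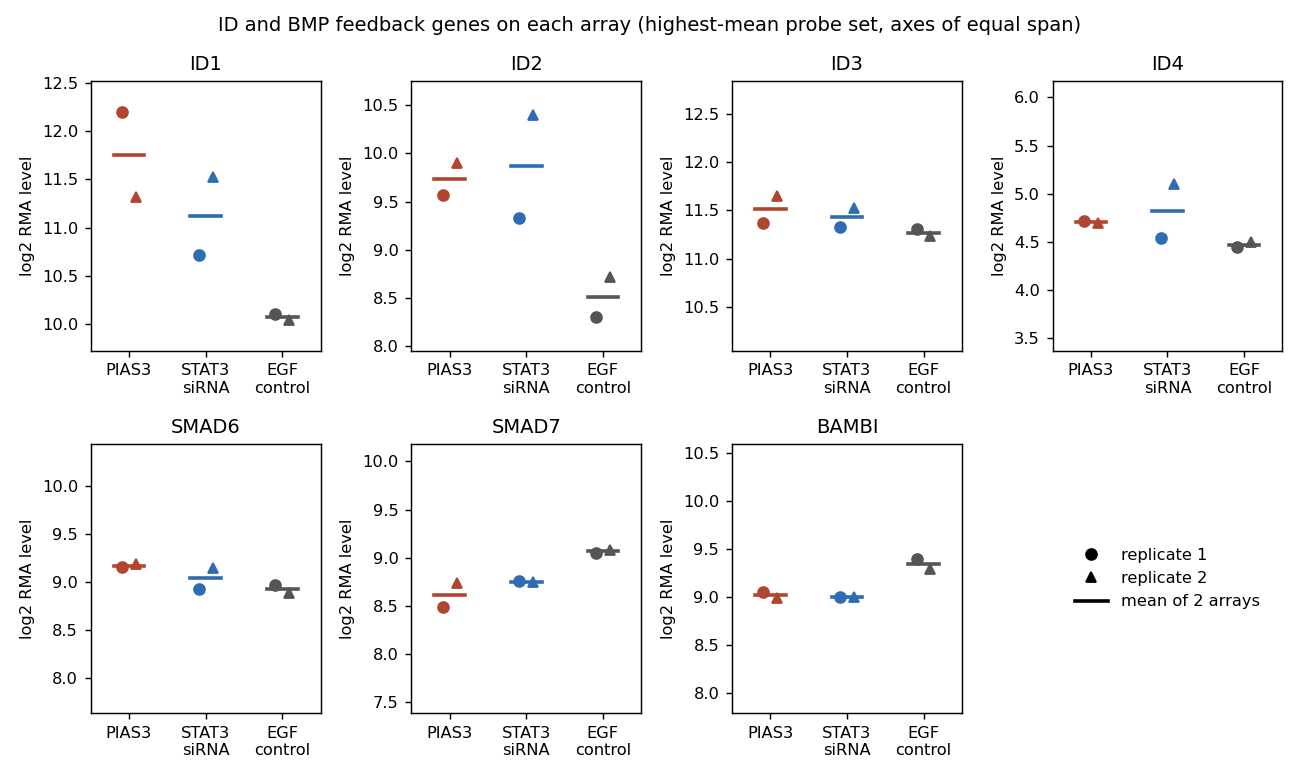
Log2 level of the highest-mean probe set of each gene on each array, by group (PIAS3, STAT3 siRNA, EGF control), with a bar at the mean of the 2 arrays; every vertical axis spans the same number of log2 units. ID1 and ID2 sit above the controls in all 4 transfected arrays with wide gaps between replicates. SMAD7 and BAMBI sit below the controls with narrower gaps, the widest being 0.26 between the 2 PIAS3 arrays for SMAD7.

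ID3 and ID4 lay nearer to control. ID3 read 11.37 and 11.65 under PIAS3 and 11.33 and 11.53 under the siRNA, against 11.31 and 11.23 in the controls. Its groups did not overlap with the controls, but siRNA replicate 1 exceeded control replicate 1 by only 0.02. The differences were 0.24 ± 0.14 with PIAS3 and 0.16 ± 0.14 with the siRNA (adjusted p = 0.9998). They rested on single arrays, being 0.10 without PIAS3 replicate 2 and 0.38 without replicate 1, and 0.06 without siRNA replicate 2 and 0.26 without replicate 1. ID4, the ID gene known chiefly from neural tissue, read 4.72 and 4.69 under PIAS3 and 4.54 and 5.10 under the siRNA, against 4.44 and 4.50 in the controls, on a probe set whose suffix also marks probes that may be shared. Its differences of 0.23 ± 0.18 and 0.35 ± 0.18 were each under 2 standard errors, and the siRNA value rested on replicate 2, being 0.07 without it. A dimmer ID4 probe set read 5.40 and 4.99 under PIAS3 and 3.93 and 5.28 under the siRNA, against 3.97 and 3.80 in the controls. In that probe set siRNA replicate 1 was at control level while the other 3 transfected arrays stood above it, and the controls read 1 just above and 1 within the absent-transcript range. Its difference with PIAS3 was 1.32 ± 0.38, with an interval from 0.42 to 2.22, so a smaller or larger difference is possible. With 1 control in the absent-transcript range, its size is also uncertain for that reason. No difference is given for the siRNA, whose replicate 1 also read in that range. The remaining ID4 probe set read between 2.90 and 3.08 on every array, below the absent-transcript range.

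SMAD7 and BAMBI, the feedback inhibitors, lay below control in all 4 transfected arrays. SMAD7, which blocks both TGF-beta and BMP receptors, read 8.48 and 8.74 under PIAS3 and 8.75 and 8.75 under the siRNA, against 9.05 and 9.08 in the controls. The differences were -0.45 ± 0.12 with PIAS3 (1.37-fold) and -0.31 ± 0.12 with the siRNA (1.24-fold, adjusted p = 0.9998). BAMBI read 9.06 and 8.99 under PIAS3 and 9.0 and 9.0 under the siRNA, against 9.39 and 9.30 in the controls. Its 4 transfected arrays spanned 0.06, against 0.10 between the controls, and the differences from control were -0.32 ± 0.10 with PIAS3 and -0.35 ± 0.10 with the siRNA (adjusted p = 0.878). Both genes gave almost the same siRNA value with either siRNA array left out, unlike ID1 and ID2: -0.34 and -0.35 for BAMBI, and -0.31 and -0.32 for SMAD7. The PIAS3 difference of SMAD7 was less steady, at -0.32 without PIAS3 replicate 1 and -0.58 without PIAS3 replicate 2. For BAMBI it was -0.35 and -0.29. Between PIAS3 and siRNA, SMAD7 differed by -0.14 ± 0.12, with an interval from -0.42 to 0.14, and BAMBI by 0.02 ± 0.10, with an interval from -0.22 to 0.27.

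SMAD6, which acts mainly on BMP-activated SMADs, had probe sets that disagreed. The brightest read 9.16 and 9.18 under PIAS3 and 8.93 and 9.15 under the siRNA, against 8.97 and 8.89 in the controls, with differences of 0.24 ± 0.12 and 0.11 ± 0.12. The next read 6.78 and 6.98 under PIAS3 and 7.01 and 7.03 under the siRNA, against 7.05 and 7.19 in the controls, with differences of -0.24 ± 0.12 and -0.10 ± 0.12. Both probe sets kept the PIAS3 arrays clear of the controls, but on opposite sides. The other 2 differed from control by 0.08 and 0.02 with PIAS3, so no direction can be given for the gene.

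**Figure D2:**
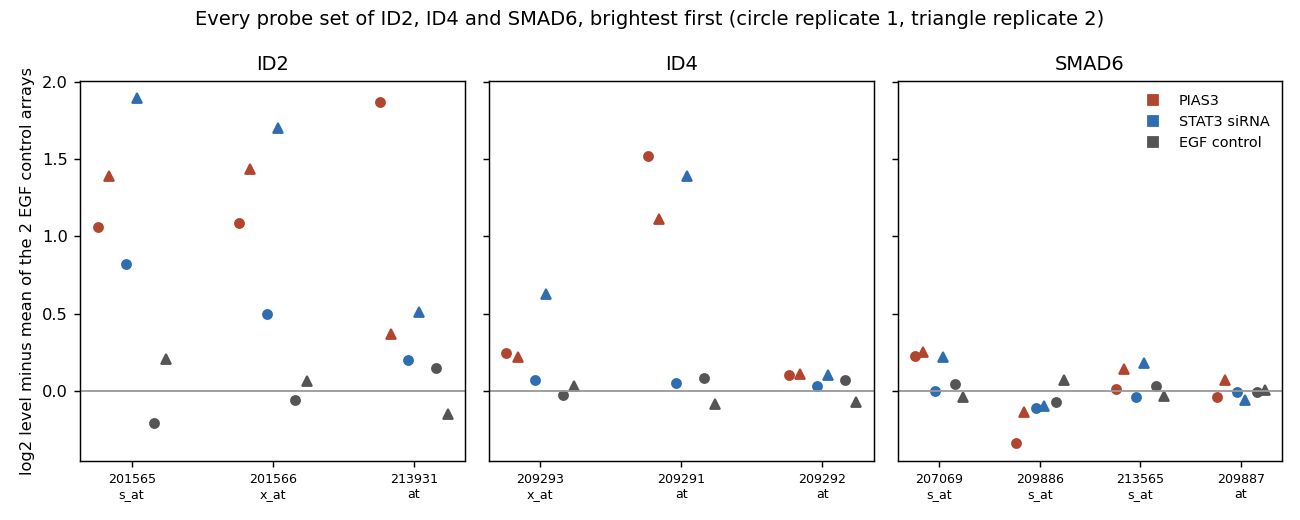
Each probe set of ID2, ID4 and SMAD6, ordered from brightest to dimmest, as the log2 level minus the mean of the 2 control arrays; colours give PIAS3, STAT3 siRNA and EGF control, circles replicate 1 and triangles replicate 2. The 2 probe sets named for ID2 alone show like patterns, an ID4 probe set shows siRNA replicate 1 at control level, and the 2 brightest SMAD6 probe sets lie on opposite sides of 0 in the PIAS3 arrays; the third ID2 column is a probe set annotated to both ID2 and ID2B.

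None of the 7 genes passed an adjusted p of 0.05 over all 22215 probe sets in any of the 3 comparisons (limma). For PIAS3 against control the count was 0 of 7, where 0.125% of all genes passed. For the siRNA against control it was 0 of 7, beside 0.00836% of all genes, and for PIAS3 against siRNA 0 of 7, beside 0%. At an unadjusted p under 0.05 the members numbered 4, 4 and 0 of 7, where 14.6%, 5.37% and 8.02% of all genes fell; in both comparisons with control these 4 were ID1, ID2, SMAD7 and BAMBI. Since the PIAS3 values were known when the genes were listed and the siRNA count uses the same control arrays, nothing is read from either count. The arrays of the groups did not overlap for 7 of 7 members in PIAS3 against control, where 46.1% of all genes did so. The count was 6 of 7 in siRNA against control, where 39% of all genes did so, and 2 of 7 in PIAS3 against siRNA (SMAD6 higher and SMAD7 lower), where 34.5% did. The median log2 difference of the 7 was 0.24, 0.16 and 0.02 in these comparisons, beside -0.004, -0.002 and -0.002 over all genes. The comparisons with control share the 2 control arrays, so a high or low control reading enters both.

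**Figure D3:**
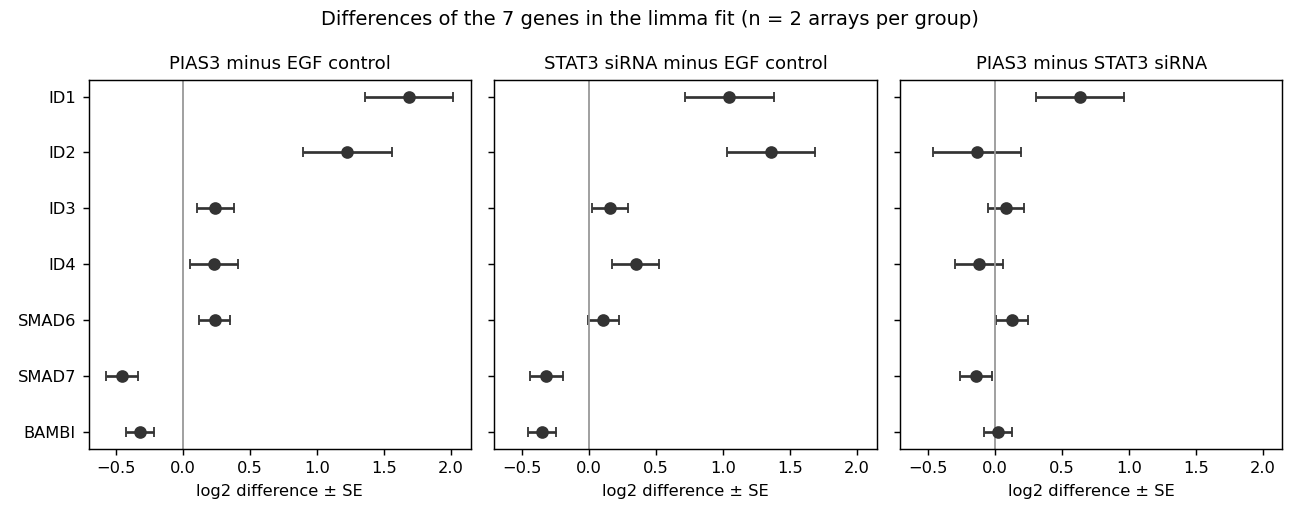
Log2 difference ± SE from the fit for the 7 genes, in PIAS3 minus EGF control, STAT3 siRNA minus EGF control and PIAS3 minus STAT3 siRNA, with 2 arrays per group. ID1 and ID2 stand above 1 log2 unit in both comparisons with control (1.69 and 1.23 with PIAS3, 1.05 and 1.36 with the siRNA), and SMAD7 and BAMBI stand between -0.45 and -0.31.

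The rest of the pathway was read from 9 lists, which held 154 genes, of which 135 were measured. In PIAS3 against control 1 of 135 passed, with a lower level, where 0.125% of all genes passed, and in the other 2 comparisons 0 of 135 passed (limma). With no adjustment, 42 of 135 (31.1%) had a p under 0.05 for PIAS3 against control, 20 (14.8%) for siRNA against control and 14 (10.4%) for PIAS3 against siRNA, where 14.6%, 5.37% and 8.02% of all genes fell. The lists were drawn up with earlier results of these arrays known, so these shares are a description. The gene that passed was CCN2, a matricellular protein and target of TGF-beta and YAP signalling, which read 9.02 and 9.20 under PIAS3 and 9.13 and 9.07 under the siRNA, against 10.30 and 10.18 in the controls. It fell by 1.13 ± 0.12 with PIAS3 (adjusted p = 0.0484), a call that ended with the replicate block, quantile normalization again or the filter on dim probe sets, and without PIAS3 replicate 1 or either control array. Its siRNA difference was -1.14 ± 0.12 (adjusted p = 0.202). Among 23 TGF-beta and activin target genes the median was -0.17 with PIAS3 and -0.19 with the siRNA, and 13 and 19 lay below control. COL4A1, a basement membrane collagen, stood at -1.14 ± 0.18 and -0.97 ± 0.18 in these comparisons and CCN1 at -1.29 ± 0.20 and -1.01 ± 0.20. Others of the list went the other way, such as SKIL at 0.67 and 0.45 and TGIF1 at 0.59 and 0.30. At an unadjusted limma p under 0.05, 5 were higher and 9 lower with PIAS3, and 0 higher and 7 lower with the siRNA.

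The 23 ligands had medians of 0.02 and 0.01 with PIAS3 and siRNA against control, and the 13 receptors 0.12 and 0.06, with 0 called. Among the ligands BMP6 read 7.82 and 7.55 under PIAS3 and 6.87 and 7.16 under the siRNA, against 6.86 and 6.75 in the controls. Its PIAS3 difference was 0.88 ± 0.15 (adjusted p = 0.0792), the smallest p among the ligands, while its dimmer probe set gave 0.14 ± 0.15. TGFB2 stood at -1.04 ± 0.20 with PIAS3 (adjusted p = 0.0994) and -0.50 ± 0.20 with the siRNA, and 1 of its 3 other probe sets, the dimmest, did not follow (0.09 ± 0.11 with PIAS3). Of the receptors, the BMP type I receptor ACVR1 read 9.05 and 8.93 under PIAS3 and 8.36 and 8.84 under the siRNA, against 8.25 and 8.33 in the controls, and TGFBR3, a co-receptor, differed by 0.79 ± 0.14 with PIAS3 (adjusted p = 0.0908). The 6 SMADs that carry the signal had medians of 0.02 and 0.04. SMAD2 lay 0.39 ± 0.11 and 0.26 ± 0.11 above control with PIAS3 and siRNA, neither passing (adjusted p of 0.181 and 0.9998).

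The BMP antagonist GREM1, a secreted protein that binds BMP ligands, differed more than any other measured antagonist. It read 4.27 and 4.77 under PIAS3 and 6.26 and 4.67 under the siRNA, against 6.79 and 7.18 in the controls. The 2 PIAS3 arrays and siRNA replicate 2 lay near each other, with siRNA replicate 1 between them and the controls. The difference was -2.47 ± 0.46 with PIAS3 (adjusted p = 0.0973) and -1.52 ± 0.46 with the siRNA (adjusted p = 0.878), and the other GREM1 probe set gave -2.21 and -1.66. FST, an activin-binding antagonist, read 9.80 and 9.60 under PIAS3 and 8.42 and 9.82 under the siRNA, against 8.72 and 8.67 in the controls. Of the SMAD regulators, the ubiquitin ligase SMURF2 stood at -0.76 ± 0.14 with PIAS3 (adjusted p = 0.0940), the TGF-beta target and inhibitor PMEPA1 at -0.74 ± 0.18 (0.141) and TOB1, an antiproliferative protein, at 0.93 ± 0.20 (0.118).

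Among 21 measured bHLH partners the medians were -0.04 with PIAS3 and -0.01 with the siRNA. TCF4, an E protein, read 6.47 and 6.74 under PIAS3 and 7.70 and 6.59 under the siRNA, against 7.57 and 7.59 in the controls, so siRNA replicate 1 again lay with the controls. TCF3, another E protein, differed by -0.34 ± 0.12 with PIAS3 (adjusted p = 0.291), with its other probe sets between -0.32 and 0.14, and TWIST1 by -0.36 ± 0.13 with the siRNA (0.959). Of 17 other BMP-induced genes 11 lay above control with PIAS3 and 9 with the siRNA. Their medians were 0.09 and 0.005, beside -0.004 and -0.002 over all genes, so nothing is read from these counts. PTGS2 had the list's largest positive PIAS3 difference, 1.84 ± 0.55, with 0.37 ± 0.55 for the siRNA. It read 8.82 and 7.58 under PIAS3 and 5.92 and 7.55 under the siRNA, against 6.47 and 6.25 in the controls. The T-box factor TBX3 read 7.34 and 7.42 under PIAS3 and 7.26 and 7.67 under the siRNA, against 6.53 and 6.56 in the controls, with differences of 0.83 ± 0.15 (adjusted p = 0.0908) and 0.92 ± 0.15 (0.303). SNAI2, a repressor linked to mesenchymal change, stood at -1.62 ± 0.35 and -1.23 ± 0.35 (0.117 and 0.823). Of 14 genes that ID proteins are known to act on, THBS1, the secreted thrombospondin that ID1 is known to repress, read 7.06 and 7.45 under PIAS3 and 8.68 and 7.36 under the siRNA, against 8.77 and 9.07 in the controls (-1.66 ± 0.38 with PIAS3, adjusted p = 0.130). Its other probe sets ranged from -1.64 to -0.06 with PIAS3. CDKN1A, a cell cycle inhibitor, differed by 0.37 ± 0.13 between PIAS3 and siRNA (0.607). In that comparison the lists' smallest p-values were those of BMP6 (0.67 ± 0.15) and JUNB (0.96 ± 0.24), both at an adjusted p of 0.607.

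**Figure D4:**
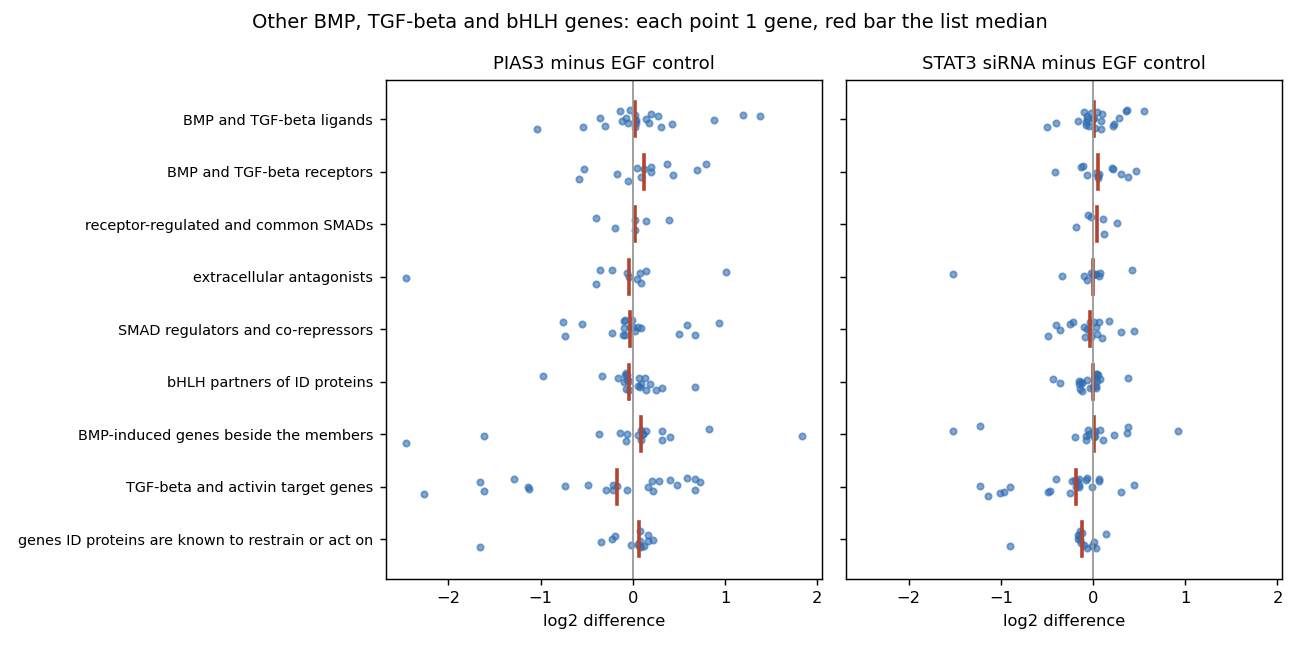
Log2 difference from EGF control of each measured gene in 9 lists (points, spread vertically for legibility) with the list median (red bar), for PIAS3 on the left and STAT3 siRNA on the right. The list medians lie between -0.17 and 0.12 with PIAS3 and between -0.19 and 0.06 with the siRNA, while single genes such as GREM1 (-2.47 with PIAS3) lie far outside.

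Genes with the array profile nearest to a member were sought among 9749 genes with a mean of at least 5, by the root mean square difference of mean-centred log2 levels over the 6 arrays. Nearest to ID1 were MTUS1, a microtubule-associated protein (0.17), the proteoglycan VCAN (0.20), AGR2, a disulfide isomerase of mucous cells (0.22), complement C5 (0.23) and the glutathione peroxidase GPX2 (0.23). AGR2 read 12.42 and 11.46 under PIAS3 and 10.26 and 11.35 under the siRNA, against 9.98 and 10.08 in the controls, so PIAS3 replicate 1 was its highest array and the controls its lowest, as for ID1. Nearest to ID2 were the transcription factor TFAP2C (0.27), TBX3 (0.31), the cyclin CCND3 (0.32), AGFG1 (0.33) and MCTP1 (0.33). The ID2 profile was matched less closely than that of ID1, because siRNA replicate 2 and control replicate 1 were more extreme for ID2. Nearest to ID3 were HADHA, a subunit of the mitochondrial trifunctional protein, and DGAT1, which makes triglycerides (both 0.02), followed by FKBP6, CHN1 and PHKA1 (0.03 each). ID3 spans a narrow range, so small distances there are easily reached.

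**Figure D5:**
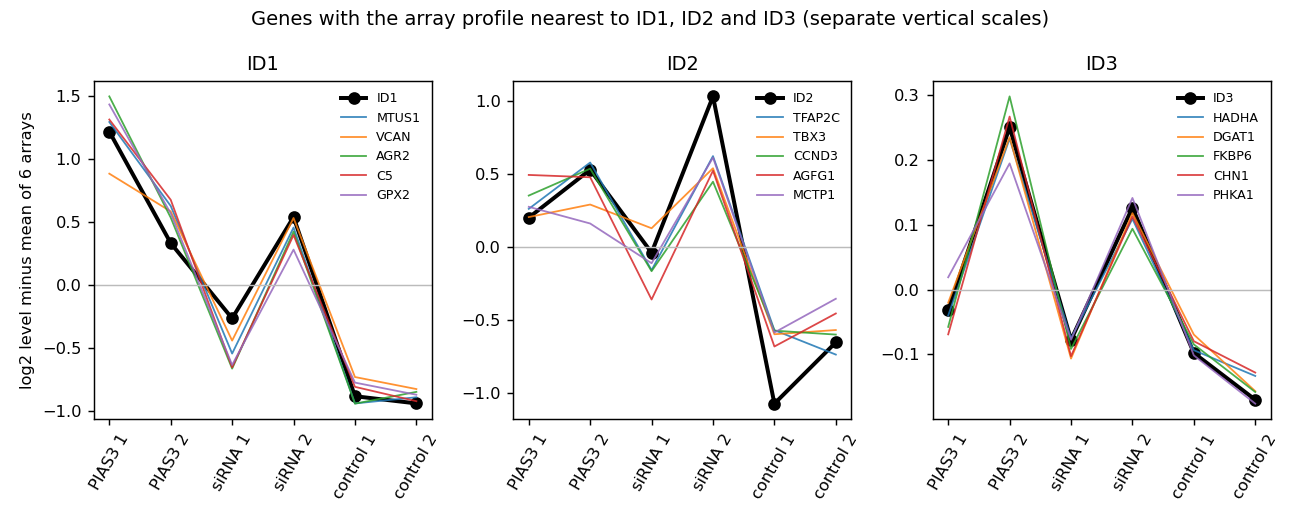
Mean-centred log2 level on each of the 6 arrays for ID1, ID2 and ID3 (black) and the 5 genes nearest to each (coloured lines), with separate vertical scales. For ID1 and ID2 the 2 PIAS3 arrays and siRNA replicate 2 lie high, siRNA replicate 1 lies between, and both controls lie low; for ID3, PIAS3 replicate 2 and siRNA replicate 2 lie high.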

How the data were processed

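Gene expression was measured with 1 Affymetrix array per sample, and groups came from the sample titles. The deposited table holds the authors' log2 values by probe set, made with RMA per the submitters' processing notes; RMA corrects background, normalizes across arrays and compresses small changes of dim probe sets. The RMA software, its version and any genome build were not named in the sources used here. Of 22277 probe sets, 62 array controls were left out. Symbols came from the supplied platform annotation (19064 probe sets with 1 symbol, 1043 with several, 2108 with none). Testing used limma 3.58.1 under R 4.3.3 (lmFit, eBayes, two-sided, all 6 arrays in one fit, 3 residual and 4.27 prior degrees of freedom), with Benjamini-Hochberg adjustment over 22215 probe sets per comparison; errors are standard errors. The number of arrays limits the precision.

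The members, lists and tests were chosen with earlier results of these data known. Named genes were the members, the targeted genes, up to 3 genes of each list with the smallest p in each comparison, any that passed, and the 5 nearest profiles; a selection of these is described. Alternatives were a replicate block, 3 normalizations, a filter at the 40th percentile, 2 variance models, the 2 groups alone, an adjusted p of 0.10, each array left out in turn, and a gene's probe sets averaged. A fit with array weights was chosen after seeing the data. Promoter sequences are from RefSeq (GRCh38.p14). Hybridization dates were not analysed here, and batch was not tested. Plots were made using matplotlib 3.10.9 (Python 3.11.15).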

Additional observations from a re-analysis of the deposited data

Results flagged for a closer look

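A probe set annotated to both ID2 and its pseudogene ID2B was kept out of the gene comparisons, and it carried a signal above that of the control arrays. It read 6.74 and 5.24 under PIAS3 and 5.07 and 5.38 under the siRNA, against 5.02 and 4.72 in the controls, and PIAS3 minus control was 1.12 on the log2 scale (limma adjusted p = 0.302). PIAS3 replicate 1 lay far above the other 5 arrays, unlike in the probe sets named for ID2 alone, where that array was not the highest.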

How the results depend on the processing

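Of 111 refits of the 7 genes' differences per comparison, 108 kept direction and side of the threshold for PIAS3 against control, 110 for siRNA against control and 103 for PIAS3 against siRNA. Much of this was fixed in advance. The replicate block, filter, variance models, array weights and 2 groups alone left each estimate unchanged, so no sign could turn there. Leaving out an array of the third group gave the same fit as the 2 groups alone. For PIAS3 against control the number of the 7 genes called was 0 in each setting except 2 without PIAS3 replicate 2 (ID1 at 2.13 with adjusted p = 0.0224 and SMAD7 at -0.58 with 0.0420, fits that rest on PIAS3 replicate 1 alone) and 1 with array weights (ID1, adjusted p = 0.0495), so leaving out an array gave 0 to 2. Over these settings ID1 ranged from 1.24 to 2.13, with adjusted p from 0.0224 to 0.701. The pathway genes called in that comparison, 1 in the report, numbered 0 with the replicate block, 0 with quantile normalization again, 0 with the filter on dim probe sets, 11 with the 2 groups alone, 4 with array weights, 9 at an adjusted p of 0.10, and from 0 (without PIAS3 replicate 1 or either control array) to 17 (without PIAS3 replicate 2) with an array left out. For siRNA against control, array weights called 1 (CCN2). For PIAS3 against siRNA the count was 0 to 4 with an array left out, the 4 being called without PIAS3 replicate 2.

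Signs turned in small differences: SMAD6 with the siRNA ranged from -0.000849 (without siRNA replicate 2) to 0.22 with an array left out. For PIAS3 minus siRNA, ID2 ranged from -0.67 to 0.40, ID3 from -0.056 to 0.23, ID4 from -0.39 to 0.16 and BAMBI from -0.0076 to 0.057, and averaging the probe sets gave 0.016 for ID2 and 0.17 for ID4. The cause was not tested. The replicate block changed no call for the 7 genes (0 of 7 in each comparison). Same-numbered arrays share only a number: their deviations correlated at 0.09 for PIAS3 and control, -0.05 for siRNA and PIAS3 and -0.06 for siRNA and control. The filter on dim probe sets removed ID4, so that setting gave no ID4 value. Leaving out an array leaves 1 in its group, which then takes its spread from the other groups.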
